A study of Mus musculus with 8 samples.

Results

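Described here are 8 of the 49212 genes in the count files, *Msc*, *Ncald*, *Clgn*, *Kit*, *C3*, *Amd2*, *Atrnl1* and *1700025G04Rik*. They were chosen by their RNA levels in these same libraries: each was higher in effector regulatory T cells (eTreg cells) labelled KO than in those labelled WT, in the spleen and in the tumor, and each lay outside the antigen and killer receptor families and the type 17 genes. The genotype differences given for them are therefore the values that selected them, and they are a description with no test. The rule named no cutoff for the size of a difference. *Prdm1* encodes Blimp1, a zinc finger protein that represses transcription in lymphocytes as they become effector cells. In eTreg cells, the activated Treg cells that move into tissues, Blimp1 is known for its part in Il10 production and for holding back programs of other helper T cells.

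WT mice were FoxP3YFP-Cre and KO mice Prdm1fl/flFoxP3YFP-Cre, all of strain C57BL/6, so both genotypes carry a YFP-Cre fusion in the Foxp3 locus and they differ in the floxed *Prdm1* allele. The Cre acts wherever Foxp3 is or was transcribed, and deletion is not limited to eTreg cells or to the tumor. All mice received B16.OVA melanoma cells under the skin at day 0, with NP-OVA in CFA (complete Freund's adjuvant) into the peritoneum on that day and in IFA (the incomplete form) at day 7. Cells were taken while tumors measured up to 1.5 cm3, as CD45+ CD44+ YFP+ CD4+ CD3+ cells, from spleen and from tumor (TIL), and the labels give no age or sex for the mice. Each genotype and tissue has 2 libraries, 8 in all, and nothing in the labels says whether 2 libraries of a group came from separate mice or whether splenic and TIL libraries with the same number share a mouse. Standard errors and p-values therefore measure the spread between these samples. Libraries held between 27834676 and 43903859 counts on genes, and 3 counts, taken as the floor, corresponded to between 0.0644 and 0.112 CPM (counts scaled to a common library total) in the 8 libraries.

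*Prdm1* itself was at 40.6 and 53.4 CPM in KO against 54.0 and 21.0 CPM in WT spleen, where the KO libraries lay within the range of the WT libraries. It was at 90.7 and 75.1 CPM in KO against 108 and 192 CPM in WT TIL, where both KO libraries lay below both WT libraries. The log2 fold change, KO over WT, was 0.32 (standard error 0.49) in spleen and -0.86 (standard error 0.37) in TIL. These counts sum over all exons of the gene and do not show whether the floxed exons were missing, so KO here means a library labelled KO. The 6 Treg markers examined (*Ctla4* the most abundant) summed to 1429 and 1565 CPM in KO against 2079 and 2316 CPM in WT spleen, and to 761 and 1379.6 CPM in KO against 6256 and 8811 CPM in WT TIL. The 6 CD4 T cell markers (*Trac* the most abundant) summed to 1282 and 4136 CPM in KO TIL and 5314 and 6818 CPM in WT TIL, and to between 5650 and 7096 CPM in the 4 splenic libraries. *Cd8a* and *Cd8b1*, which the CD4 gate should leave out, summed to 406 and 2220.4 CPM in KO against 148 and 48.2 CPM in WT TIL, and to 15.0 and 17.5 CPM in KO against 24.3 and 30.7 CPM in WT spleen. In KO TIL the Treg markers were thus low and the *Cd8* genes high in both libraries. In bulk samples such as these, fewer cells of a type and less RNA per cell cannot be told apart.

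In each tissue, both KO libraries lay above both WT libraries for all 8 genes. Among the 14787 genes tested in both tissues, 16.7% separated this way in spleen, 17.6% in TIL and 3.67% (543 genes) in both. Ranked by the smaller of their log2 fold changes in the 2 tissues among those 543 genes, *Msc* was number 2, *Atrnl1* number 7, *Amd2* number 8, *Ncald* number 18, *Clgn* number 23, *C3* number 28, *1700025G04Rik* number 35 and *Kit* number 48. The median log2 fold change over all genes tested was -0.02 in spleen and 0.04 in TIL. DESeq2 called 67 of 18034 genes higher in KO spleen (0.372%) and 566 of 16264 in KO TIL (3.48%), and 13 of 15312 (0.0849%) in both, with all 8 genes among the 13. The other 5, chosen after their values were seen, were *Il23r*, *Klrb1b*, *Klrc1*, *Tcrg-C1* and the unnamed gene *RP24-167A12.3*. edgeR's quasi-likelihood test called 0 genes in either direction in spleen (0.0% of 16583, with 489 at an unadjusted p under 0.05) and 0 in TIL (0.0% of 15935, with 1573 at an unadjusted p under 0.05). With no filter on low counts edgeR called 167 genes in spleen and 1072 in TIL. With replicate number as a block it called 101 and 728, and with all 8 libraries in the fit 0 and 135. Without WT splenic replicate 1 it called 3972 genes in spleen, without each other splenic library 21 to 47, and without any 1 TIL library 0 in TIL. Nothing is read from these shares for the 8 genes, since the same contrasts chose them. DESeq2's shares over all genes also stand for comparison with its counts in the lists of other genes below.

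**Figure D1:**
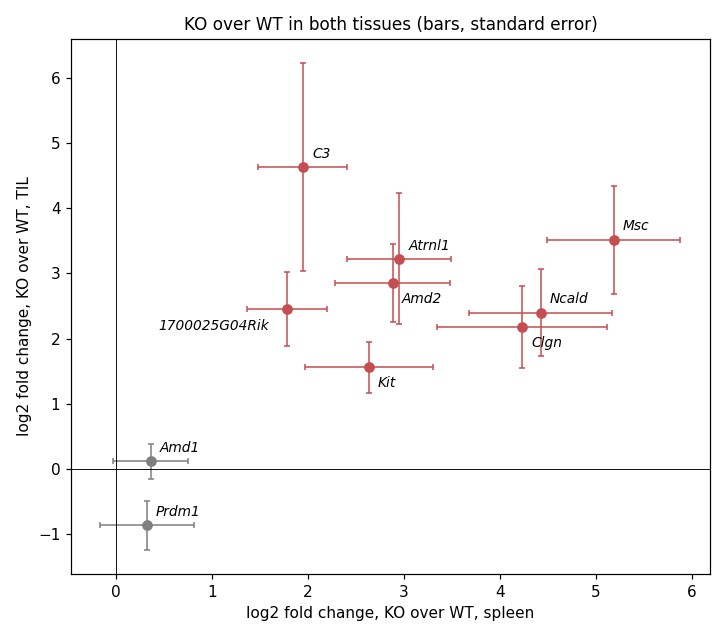
Log2 fold change, KO over WT, in spleen (horizontal axis) and TIL (vertical axis) for the 8 genes (red) and for *Prdm1* and *Amd1* (gray), with bars for the standard error from edgeR's fit on 4 libraries per tissue. The 8 genes, which were selected on these values, lie at 1.78 or more in spleen and at 1.56 or more in TIL, and *Msc* is highest in spleen and *C3* in TIL.

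*Msc* encodes musculin, a basic helix-loop-helix (bHLH) repressor that is known to hold down the type 2 helper (Th2) program in induced Treg cells. It was at 11.2 and 13.6 CPM in KO against 0.150 and 0.535 CPM in WT spleen. It was at 1.27 and 3.63 CPM in KO against 0.215 and 0.202 CPM in WT TIL. WT eTreg cells of both tissues thus had close to no *Msc* RNA (5 and 15 counts in spleen, 6 and 6 in TIL), KO spleen had the most, and KO TIL lay between them without overlap. On the log2 scale, KO exceeded WT by 5.19 (standard error 0.69) in spleen, the highest among the 8 genes, and 3.52 (standard error 0.83) in TIL. Leaving out each library in turn moved the splenic value between 4.59 and 6.35 and the TIL value between 2.56 and 4.09. From the summed counts, the ratio in spleen was 37.9, with an exact 95% interval for counting error of 24.4 to 62.2. Per length of exon, *Msc* was the most abundant of the 8 in KO spleen, at 4.88 RPKM (CPM per kilobase of exon), above 59.5% of the genes that passed the expression filter. The *Msc* gene (chr1:14753346-14755992, minus strand, GRCm38) shares 539 exon bases with *Gm9947* on the opposite strand. *Gm9947* had 80 counts over all libraries against 1229 for *Msc*, and how reads in the shared bases were assigned is uncertain.

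Other bHLH genes went in both directions. Of 20 in the list, which holds the E proteins, the Id proteins and the closest relative *Tcf21*, 14 were tested in each tissue. In spleen 6 had a log2 fold change above 0 and 8 below (median -0.06, all genes -0.02), from 1.28 for *Ascl2* to -2.39 for *Lyl1*. TIL gave the same split of 6 and 8 (median -0.16, all genes 0.04), from 3.11 for *Hes1* to -1.18 for *Hey1*. edgeR called 0 in both tissues, with 2 in spleen and 3 in TIL at an unadjusted p under 0.05, and DESeq2 called 0 in both. *Id2*, an inhibitor of E proteins and the most abundant per length, was at 327 and 282 CPM in KO against 191 and 435 CPM in WT spleen, where the genotypes overlapped, and at 542 and 734 CPM in KO against 996 and 1197 CPM in WT TIL, where both KO libraries were lower (log2 fold change -0.78).

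Of 17 genes of the Th2 program, 14 were tested in each tissue. In spleen 5 had a log2 fold change above 0 and 9 below (median -0.15), from 2.99 for *Ptgdr2*, a prostaglandin receptor of Th2 cells, to -4.05 for *Il10*. The value of *Ptgdr2* is imprecise, since the WT splenic libraries held 0 and 2 counts, below the floor of 3. In TIL 3 were above 0 and 11 below, and the median was -2.34 against 0.04 over all genes, from 1.41 for the bZIP factor *Nfil3* to -3.70 for the chemokine receptor *Ccr8*. DESeq2 called 1 lower in KO spleen (*Il10*) and 8 lower in KO TIL (*Gata3*, *Il1rl1*, *Ccr4*, *Ccr8*, *Il10*, *Maf*, *Areg* and *Dusp4*), where over all genes it called 8 of 18034 (0.0444%) and 195 of 16264 (1.2%) lower, while edgeR called 0 in each, with 3 and 11 at an unadjusted p under 0.05. *Gata3*, the factor that directs Th2 cells, was at 35.9 and 69.0 CPM in KO against 213 and 477 CPM in WT TIL, and at 224 and 218 CPM in KO against 263 and 214 CPM in WT spleen. *Gata3* was thus lower in both KO TIL libraries, and the genotypes overlapped in spleen. Several of these genes are also Treg genes, the Treg markers were low in the same KO TIL libraries, and the part of either in these values was not tested.

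*Ncald* encodes neurocalcin delta, an EF-hand protein that binds calcium and then moves to membranes, known best from neurons. It was at 7.56 and 3.57 CPM in KO against 0.359 and 0.143 CPM in WT spleen. It was at 15.0 and 27.7 CPM in KO against 5.96 and 2.13 CPM in WT TIL. The WT splenic libraries were lowest (12 and 4 counts), the KO TIL libraries highest, and KO spleen and WT TIL overlapped between them. The log2 fold change, KO over WT, was 4.43 (standard error 0.74) in spleen and 2.40 (standard error 0.66) in TIL, and with each library left out it ran from 3.82 to 5.31 and from 1.83 to 3.32. The gene spans chr15:37366175-37792570 (minus strand) and shares exon bases with *Gm28221* and *Gm15941*, which had 0 and 13 counts in all against 1951 for *Ncald*.

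Of 16 other EF-hand sensors, most of them neuronal, 8 were tested in each tissue, with 3 above 0 and 5 below in spleen (median -0.05) and 6 above and 2 below in TIL (median 0.17). The splenic values ran from 0.34 for *Ncs1* to -1.56 for *Guca1a*, and those in TIL from 5.30 for *Kcnip3* to -1.25 for *Kcnip2*. edgeR called 0 in either tissue (0 and 1 at an unadjusted p under 0.05) and DESeq2 called *Kcnip3* alone, higher in KO TIL. *Kcnip3*, known as a calcium-regulated repressor of transcription and a partner of potassium channels, was at 2.70 and 6.02 CPM in KO against 0.215 and 0 CPM in WT TIL, and at 0.129 and 0.532 CPM in KO against 0.778 and 0.0357 CPM in WT spleen, where the genotypes overlapped. Calmodulin RNA was abundant in every library, and *Calm2*, the most abundant of the list per length, was between 562 and 741 CPM.

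*Clgn* encodes calmegin, a lectin chaperone of the endoplasmic reticulum that is known from the testis, where sperm need it to fertilize. It was at 3.05 and 1.82 CPM in KO against 0.209 and 0.0357 CPM in WT spleen. It was at 6.82 and 18.5 CPM in KO against 2.98 and 2.60 CPM in WT TIL. As with *Ncald*, WT spleen was lowest and KO TIL highest, and WT TIL overlapped with KO spleen. In WT spleen *Clgn* rested on 7 counts and 1 count, so its splenic ratio is imprecise: 214 counts in KO against 8 in WT gave 19.1, with an exact 95% interval for counting error of 9.52 to 44.8. The log2 fold change, KO over WT, was 4.23 (standard error 0.89) in spleen and 2.18 (standard error 0.63) in TIL. It was 6.02 in spleen without WT replicate 1 and 3.52 without WT replicate 2, and 1.27 in TIL without KO replicate 2.

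Other chaperones and folding enzymes of the endoplasmic reticulum were set beside calmegin. Of 24 listed, 22 were tested in each tissue, with 18 above 0 and 4 below in spleen (median 0.24) and 17 above and 5 below in TIL (median 0.13). Values ran from 1.23 for *Ero1l*, an oxidase for disulfide bonds, to -0.93 for *Uggt2* in spleen, and from 0.85 for *Edem1* to -0.79 for *Calr3* in TIL. edgeR and DESeq2 called 0 in both tissues, and 0 had an unadjusted p under 0.05 in edgeR's test. *Pdia3*, a disulfide isomerase that partners with lectin chaperones, was the most abundant per length, with a mean of 346 RPKM over the 8 libraries, where *Clgn* reached 3.15 RPKM in KO TIL.

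*Kit* encodes the receptor tyrosine kinase for stem cell factor, which blood progenitors, mast cells, some innate lymphoid cells and melanocytes depend on. It was at 5.30 and 5.85 CPM in KO against 1.35 and 0.428 CPM in WT spleen. It was at 26.7 and 21.8 CPM in KO against 9.55 and 6.92 CPM in WT TIL. The 4 groups did not overlap, and their order was KO TIL, WT TIL, KO spleen and WT spleen. KO exceeded WT by 2.64 on the log2 scale (standard error 0.66) in spleen and 1.56 (standard error 0.39) in TIL, the lowest of the 8 genes there. Leaving out WT splenic replicate 1, which held 45 counts where replicate 2 held 12, raised the splenic value to 3.75, and leaving out replicate 2 lowered it to 2.05. The gene lies at chr5:75574916-75656722 (plus strand).

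*Kit* was set beside markers of other cells that carry it, which the sort for CD3+ CD4+ YFP+ cells should leave out. Of 9 markers of mast cells and basophils (*Hdc* the most abundant), *Fcer1a*, *Ms4a2*, *Mcpt4* and *Tpsb2* had 0 counts in all 8 libraries, and the 9 summed to 28.6 and 17.4 CPM in KO against 7.94 and 3.24 CPM in WT TIL and to 2.47 and 1.98 CPM in KO against 2.75 and 4.56 CPM in WT spleen. Of the KO TIL sums, 26.0 and 14.7 CPM came from *Hdc*, the histidine decarboxylase gene. *Mcpt8*, a protease gene of basophils, had 25 and 56 counts in KO TIL against 1 and 0 in WT TIL, and 0 to 3 in a splenic library. Both WT TIL counts lay below the floor of 3 counts, so no fold change is given. Of the 3 markers tested in TIL, DESeq2 called *Mcpt8* and *Hdc* higher in KO, and edgeR called 0, with 2 at an unadjusted p under 0.05. *Cpa3* of the same list was not tested there and went the other way. It had 3 and 4 counts in KO against 5 and 10 in WT TIL, near the floor. The 8 markers of hematopoietic progenitors (*Gata1* the most abundant, no marker at 0 in all libraries) summed to 23.5 and 10.4 CPM in KO against 11.6 and 9.38 CPM in WT TIL, and to 22.8 and 26.7 CPM in KO against 13.0 and 23.6 CPM in WT spleen, where the genotypes overlapped. Among them *Hlf* was at 13.9 and 15.9 CPM in KO against 1.98 and 4.53 CPM in WT spleen (log2 fold change 2.19), called higher by DESeq2 alone, while *Gata1* was at 7.39 and 8.92 CPM in KO against 10.4 and 17.2 CPM in WT. So in spleen *Hlf* was higher in KO, as *Kit* was, and *Gata1* lower. In TIL both were lower in KO and *Flt3* was higher, at 12.8 and 6.77 CPM in KO against 4.38 and 1.38 CPM in WT (log2 fold change 1.76), and of the 4 markers tested there 2 were above 0 and 2 below, with 0 called by DESeq2 or edgeR and 1 at an unadjusted p under 0.05 in edgeR's test. The 8 markers of innate lymphoid cells, which include *Kit* and are shared with Treg cells for the most part (*Il7r* the most abundant), summed to 477 and 422 CPM in KO against 1268 and 2027 CPM in WT TIL, and to 1241 and 1557 CPM in KO against 1101 and 909 CPM in WT spleen. The 8 markers of melanocytes and melanoma (*Tyrp1* the most abundant) summed to 3274 and 848 CPM in KO against 2109.6 and 1157 CPM in WT TIL and to no more than 9.27 CPM in a splenic library, so in TIL they overlapped between genotypes while *Kit* did not. Mast cell and basophil sums, which in TIL came for the most part from *Hdc*, were higher in KO than in WT TIL. They were lower in KO than in WT spleen without overlap, where *Kit* was higher in KO. The part of cells with these markers in the *Kit* values of spleen and TIL was not tested.

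The list of Kit's ligand, the kinases of its class and the proteins that carry its signal holds 25 genes. In spleen 22 were tested, with 12 above 0 and 10 below (median 0.11), from 0.68 for *Flt3* to -1.57 for *Kitl*, the gene of stem cell factor. In TIL 23 were tested, with 17 above and 6 below (median 0.49), from 3.20 for the adaptor *Gab2* to -0.998 for *Stat5a*. edgeR called 0 in each (0 and 6 at an unadjusted p under 0.05), and DESeq2 called 0 in spleen and 3 in TIL, *Grb2*, *Gab2* and *Sh2b3*, all higher in KO. Over all genes DESeq2 called 67 of 18034 (0.372%) higher in KO spleen and 566 of 16264 (3.48%) in KO TIL. *Gab2* was at 77.8 and 7.33 CPM in KO against 7.11 and 2.13 CPM in WT TIL, and *Grb2* at 237 and 149.5 CPM in KO against 78.3 and 48.4 CPM in WT. The 12 macrophage markers summed to 17277 and 2039 CPM in KO against 3710.2 and 620.4 CPM in WT TIL. They were highest and lowest in the same TIL libraries as *Gab2*, and the part of macrophages in the values of this list was not tested. The phosphatase gene *Ptpn6* was the most abundant of the list per length, with a mean of 97.7 RPKM.

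*C3* encodes the central protein of the complement cascade, which is secreted and cleaved on targets. It was at 12.3 and 21.8 CPM in KO against 5.18 and 3.64 CPM in WT spleen. It was at 321 and 16.9 CPM in KO against 11.6 and 2.06 CPM in WT TIL. KO TIL replicate 1 stood apart with 10125 counts, far above KO TIL replicate 2 (452 counts) and every other library, and the KO libraries of the 2 tissues overlapped, as did the WT libraries. In spleen the log2 fold change, KO over WT, was 1.95 (standard error 0.46), and with each library left out it ran from 1.48 to 2.33. In TIL it was 4.63 (standard error 1.59), 1.31 without KO TIL replicate 1 and 6.34 without WT TIL replicate 1. The gene lies at chr17:57203970-57228136 (minus strand).

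Macrophages are known to make C3, and their transcripts were present in the libraries. The sort for CD45+ CD3+ CD4+ YFP+ cells should leave out macrophages, neutrophils and fibroblasts. The 12 macrophage markers (*Lyz2* the most abundant, none at 0 in all libraries) summed to 17277 and 2039 CPM in KO against 3710.2 and 620.4 CPM in WT TIL, so the TIL library with the most *C3* also had the highest sum, and the one with the least *C3* the lowest. In spleen they summed to 395 and 1132 CPM in KO against 577 and 2757 CPM in WT, where WT replicate 2 had the highest sum and the lowest *C3*. The 8 neutrophil markers (*S100a8* the most abundant) summed to 471 and 223 CPM in KO against 101 and 14.2 CPM in WT TIL, and to 5.56 and 10.5 CPM in KO against 0.868 and 21.0 CPM in WT spleen. The 8 fibroblast markers (*Sparc* the most abundant) summed to 82.6 and 22.7 CPM in KO against 74.3 and 65.6 CPM in WT TIL, with no more than 1.83 CPM in a splenic library. Of the KO TIL fibroblast sums, 75.7 and 21.4 CPM came from *Sparc*. Among the 5 fibroblast markers tested in TIL, 1 was above 0 and 4 were below (median -2.90), DESeq2 called *Col1a1* and *Col3a1* lower in KO, and edgeR called 0, with 2 at an unadjusted p under 0.05. Within KO TIL, then, *C3*, macrophage sums and neutrophil sums were higher in replicate 1, as were the fibroblast markers other than *Col1a1* (0.476 and 0.523 CPM) and *Lum* (0 in both). Their part in the *C3* values of TIL was not tested.

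Of 38 complement components, regulators and receptors, 25 were tested in each tissue. In spleen 14 had a log2 fold change above 0 and 11 below (median 0.07), from 2.27 for *C4b* to -1.90 for *C1qb*. In TIL 20 were above and 5 below (median 1.12, all genes 0.04), from 3.55 for *Itgax*, a chain of a receptor for cleaved C3, to -1.73 for *Hc*, which encodes C5. edgeR called 0 in each tissue, with 1 and 1 at an unadjusted p under 0.05, and DESeq2 called 0 in spleen and 2 higher in KO TIL, *Cfb* and *Itgax*. *Cfb*, whose product joins cleaved C3 in the enzyme that amplifies the cascade, was at 84.6 and 6.02 CPM in KO against 7.58 and 1.42 CPM in WT TIL. *C1qb*, the most abundant per length and itself a macrophage gene, was at 1081 and 208 CPM in KO against 422 and 117 CPM in WT TIL, and at 50.03 and 135 CPM in KO against 89.4 and 597 CPM in WT spleen, with overlap in both tissues.

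**Figure D2:**
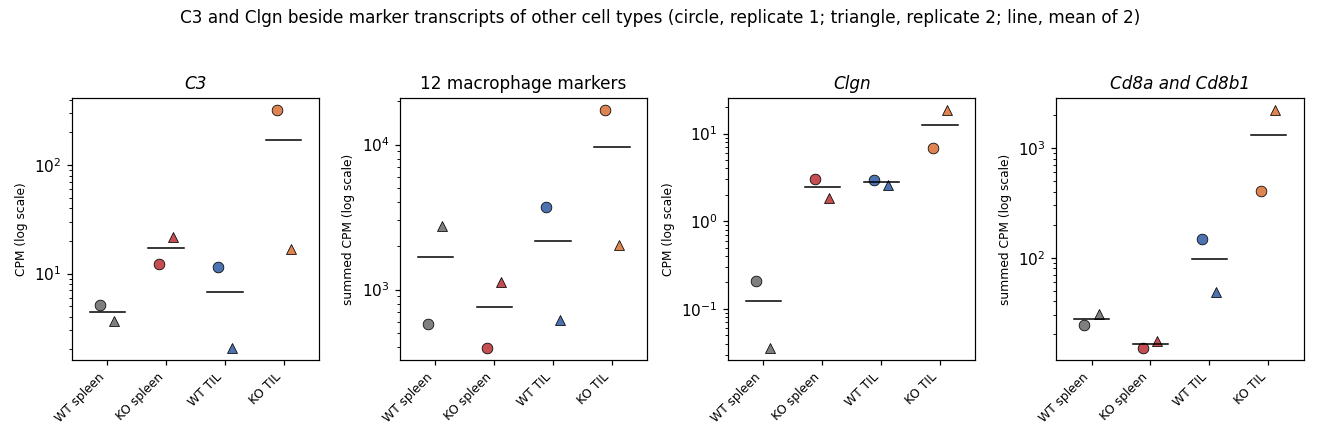
Levels of *C3* and *Clgn* (CPM, log axis) beside the summed levels of 12 macrophage markers and of *Cd8a* with *Cd8b1* in each library; circles and triangles are replicates 1 and 2 and lines are means. In KO TIL *C3* and the macrophage markers are highest in replicate 1 and *Clgn* and the *Cd8* genes in replicate 2, while in spleen *C3* and *Clgn* are higher in KO and the macrophage and *Cd8* sums are not.

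*Amd2* is annotated as a second gene for S-adenosylmethionine decarboxylase, the enzyme that supplies the aminopropyl groups for spermidine and spermine. It was at 7.71 and 13.7 CPM in KO against 0.898 and 2.00 CPM in WT spleen. It was at 6.09 and 11.9 CPM in KO against 1.47 and 1.01 CPM in WT TIL. KO libraries of both tissues overlapped, as did WT libraries. KO exceeded WT by a log2 fold change of 2.88 (standard error 0.60) in spleen and 2.85 (standard error 0.60) in TIL, with each library left out 2.42 to 3.57 and 2.27 to 3.26. *Amd1*, the related gene with introns, was at 52.3 and 60.7 CPM in KO against 56.9 and 30.8 CPM in WT spleen. It was at 72.4 and 62.3 CPM in KO against 63.4 and 60.4 CPM in WT TIL, and the genotypes overlapped in both tissues (log2 fold changes 0.36 and 0.12). Per length of exon, *Amd2* reached 3.32 RPKM in KO spleen, where *Amd1* was at 15.9 RPKM.

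*Amd2* (chr10:35708675-35711892, minus strand, GRCm38) has 1 exon of 3218 nt and is a near copy of the *Amd1* transcript of 3204 nt. Of 3198 aligned bases 3188 were identical (99.7%), with 10 mismatches and 4 bases in gaps. Of the 3069 windows of 150 nt in *Amd2*, 1890 (61.6%) occur unchanged in *Amd1*, and a single read from such a window cannot be placed uniquely. Reads were paired, per the paper, and a pair can be placed uniquely if a mate, or both, comes from the remaining windows. Counts of *Amd2* thus rest on such pairs and are uncertain. The promoter sequences show where the copies part, and they are shown because the genotypes separated for *Amd2* and overlapped for *Amd1*. They come from RefSeq on build GRCm38.p6, from 250 bases before to 50 after the start of transcription, as chr10:35711842-35712141 for *Amd2* and chr10:40302139-40302438 for *Amd1*, both on the minus strand. Capitals mark a run of 48 bases that the pair shares, which begins at base 251 of *Amd2*, next to the annotated start of its transcript, and occurs in 2 of 32851 promoters. Before it, the 250 bases of *Amd2* and the 252 of *Amd1* share no run longer than 7 bases.
Amd2: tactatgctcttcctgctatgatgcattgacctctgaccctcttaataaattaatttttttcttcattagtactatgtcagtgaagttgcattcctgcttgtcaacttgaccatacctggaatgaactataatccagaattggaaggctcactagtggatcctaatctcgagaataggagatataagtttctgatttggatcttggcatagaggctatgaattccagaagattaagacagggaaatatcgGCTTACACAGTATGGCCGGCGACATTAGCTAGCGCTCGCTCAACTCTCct
Amd1: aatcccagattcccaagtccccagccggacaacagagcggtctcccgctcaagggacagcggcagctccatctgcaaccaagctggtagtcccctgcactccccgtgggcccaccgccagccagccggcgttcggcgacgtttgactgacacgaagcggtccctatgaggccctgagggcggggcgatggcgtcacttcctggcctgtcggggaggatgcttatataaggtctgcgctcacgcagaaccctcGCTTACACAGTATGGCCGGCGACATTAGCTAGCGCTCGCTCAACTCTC

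*Amd2* shares chromosome 10 with the floxed gene: its nearest end is 8.73 Mb from *Prdm1* (chr10:44437177-44528501), *Amd1* lies 4.13 Mb from *Prdm1*, and 4.58 Mb separate the copies. No other of the 8 genes lies on this chromosome. Within 10 Mb of *Prdm1* the files hold 267 genes, of which 83 were tested in spleen and 76 in TIL. Their median log2 fold change was 0.15 in spleen (all genes -0.02) and 0.02 in TIL (all genes 0.04), with 45 and 40 above 0. edgeR called 0 of them in each tissue. DESeq2 called 75 of all 18034 genes in spleen and 761 of 16264 in TIL, in either direction. Within 10 Mb it called 4 and 2, with *Amd2* among both. Besides *Amd2*, 4 genes there were higher in both KO libraries in both tissues, *RP23-145G7.2*, *RP24-167A12.3*, *Gopc* and *Nus1*, which were chosen after their values were seen. The first pair flank *Prdm1*. *RP23-145G7.2* had 0 counts in both WT splenic libraries and, against the floor of 3 counts per library, was at least 29.0-fold higher in KO spleen, with a log2 fold change of 2.00 in TIL, and *RP24-167A12.3* had 4.65 and 2.26. *Gopc* and *Nus1* had 0.66 and 0.36 in spleen and 0.30 and 0.59 in TIL. Whether position near the floxed gene plays a part in the *Amd2* values was not tested.

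Enzymes and regulators of polyamine synthesis, use and breakdown were set beside *Amd2*. Of 23 genes in the list, 22 were tested in each tissue, with 14 above 0 and 8 below in spleen (median 0.18) and 18 above and 4 below in TIL (median 0.20). Values in spleen ran from 1.70 for *Azin2* to -0.70 for *Dhps*, and the lowest in TIL was -1.25 for the antizyme *Oaz2*. edgeR called 0 in each (0 and 2 at an unadjusted p under 0.05), as did DESeq2. *Odc1*, which makes putrescine, the precursor of spermidine, was at 308 and 267 CPM in KO against 298 and 162 CPM in WT spleen and at 653 and 678 CPM in KO against 779.6 and 475 CPM in WT TIL, with overlap in both tissues. *Eif5a*, the translation factor that carries the spermidine-derived residue hypusine, was the most abundant per length, with a mean of 473 RPKM.

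*Atrnl1* encodes attractin-like 1, a membrane protein related to attractin. It was at 6.44 and 9.70 CPM in KO against 1.29 and 0.784 CPM in WT spleen. It was at 28.6 and 6.95 CPM in KO against 3.05 and 0.742 CPM in WT TIL. KO libraries were higher in both tissues, KO TIL replicate 1 was highest of all, and the tissues overlapped within each genotype. The log2 fold change, KO over WT, was 2.95 (standard error 0.54) in spleen, and with each library left out it ran from 2.63 to 3.42. In TIL it was 3.22 (standard error 1.01), 1.87 without KO TIL replicate 1 and 4.56 without WT TIL replicate 1, so KO TIL replicate 1 raised the value and WT TIL replicate 1 lowered it, as they did for *C3*. The gene spans chr19:57611034-58133338 (plus strand).

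Of 6 genes of the attractin family and proteins that act with it, 4 were tested in spleen, with 3 above 0 and 1 below (median 0.40), and the highest was *Atrn* at 0.43. In TIL 5 were tested, with 4 above and 1 below (median 0.62), from 1.82 for *Atrn* to -0.01 for *Rnf157*. edgeR called 0 in each (0 and 1 at an unadjusted p under 0.05), and DESeq2 called *Atrn* higher in KO TIL. *Atrn* was at 15.2 and 18.1 CPM in KO against 14.2 and 10.4 CPM in WT spleen and at 28.9 and 15.6 CPM in KO against 7.76 and 4.86 CPM in WT TIL. The ligase gene *Mgrn1* was the most abundant per length, with a mean of 27.3 RPKM.

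*1700025G04Rik* is a gene known by its cDNA clone, and its role is not known. It was at 12.3 and 17.7 CPM in KO against 3.92 and 4.74 CPM in WT spleen. It was at 15.4 and 13.8 CPM in KO against 3.70 and 1.62 CPM in WT TIL. The KO libraries of the 2 tissues lay close together and overlapped, the WT splenic libraries were lower, and the WT TIL libraries lowest. On the log2 scale the genotype difference was 1.78 (standard error 0.42) in spleen, the lowest of the 8 genes there, and 2.45 (standard error 0.56) in TIL, with each library left out 1.51 to 2.05 and 1.96 to 3.16. It spans chr1:151852403-152090125 (minus strand) and shares 333 exon bases with *Gm28610* on the opposite strand, which had 0 counts.

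**Figure D3:**
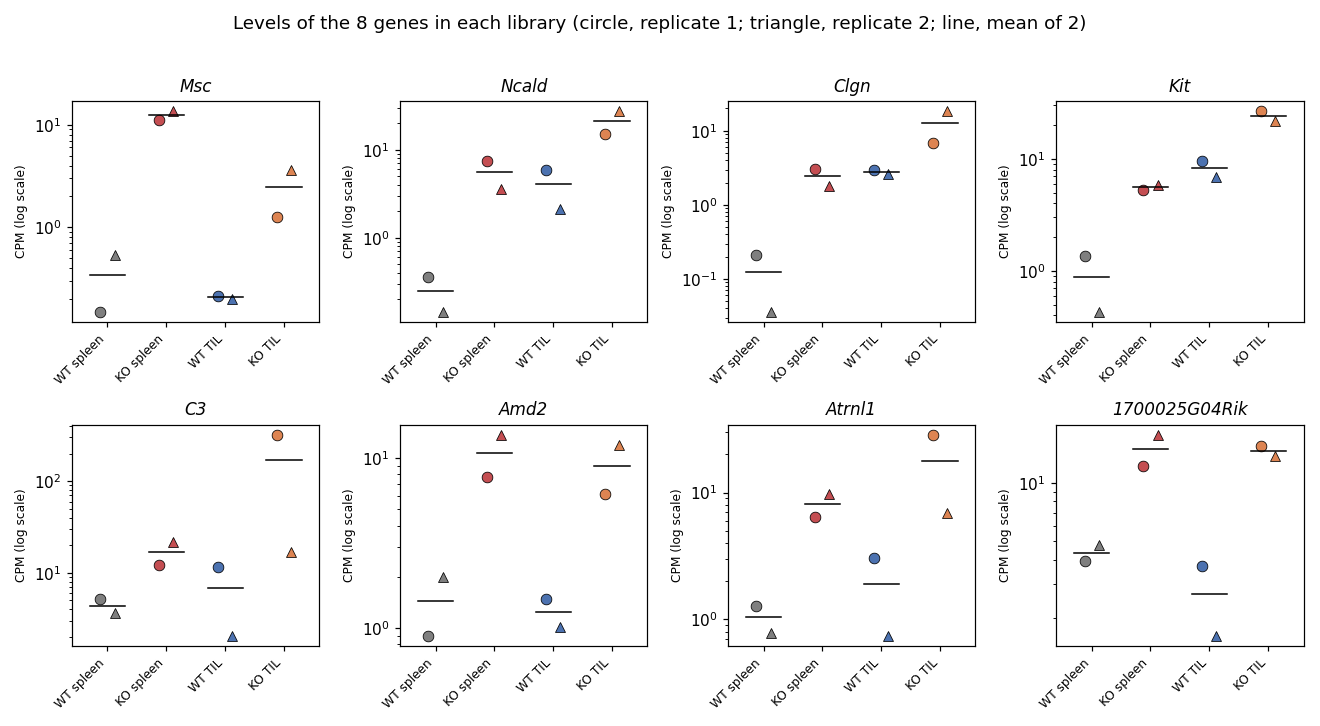
CPM (log axes) of the 8 genes in each library; circles and triangles are replicates 1 and 2 and lines are means of 2. As selected, every gene has its KO libraries above its WT libraries in each tissue, and *Ncald*, *Clgn* and *Kit* are also higher in TIL than in spleen within each genotype.

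Within a genotype, TIL and splenic libraries were compared to ask how the tissue bears on these genes, a contrast that the choice of genes did not use. The libraries themselves did enter that choice: low WT splenic values favor a higher ratio of TIL to spleen in WT, and low WT TIL values a lower one. The p-values and calls of the 8 genes do not account for this and are no independent evidence of a tissue difference. Nothing is read from their counts beside the shares over all genes. In WT, edgeR called 3 of the 7 genes tested higher in TIL and 0 lower, where it called 674 of 16427 genes (4.1%) higher and 307 (1.87%) lower. The 3 were *Clgn* (log2 fold change 4.43, standard error 0.96, adjusted p = 0.0254), *Ncald* (3.98, standard error 0.91, adjusted p = 0.0301) and *Kit* (3.21, standard error 0.77, adjusted p = 0.0357), each higher in both TIL than in both splenic libraries. *Clgn* (7 counts and 1 count in spleen) and *Ncald* (12 and 4) passed the expression filter through their TIL libraries, and with no filter on low counts all 3 were called as well. DESeq2 also called these 3, where it called 1183 of 18206 genes (6.5%) higher and 622 (3.42%) lower. Over all genes, 981 were called, 213 without WT splenic replicate 2 and 513 without WT TIL replicate 1. Each call depended on single libraries. *Ncald* had 4.80 (adjusted p = 0.0564) without WT splenic replicate 1, 3.52 (0.172) without WT splenic replicate 2 and 3.07 (0.277) without WT TIL replicate 1, and it had 4.57, still called, without WT TIL replicate 2. *Clgn* had 3.75 (adjusted p = 0.112) without WT splenic replicate 2 and 6.14, still called, without WT splenic replicate 1. *Kit* had 2.65 (adjusted p = 0.132) without WT splenic replicate 2, 2.97 (0.0846) without WT TIL replicate 1 and 4.27, still called, without WT splenic replicate 1.

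The other 4 genes tested did not pass in WT. *C3* had a log2 fold change of 0.63 (adjusted p = 0.707 in edgeR's test), and -1.08 without WT TIL replicate 1. *Atrnl1* had 0.87 (adjusted p = 0.614), and -0.46 without the same library. *Amd2* had -0.22 (adjusted p = 0.906) and ran from -0.67 to 0.51 with each library left out. *1700025G04Rik* had -0.70 (adjusted p = 0.617), with both TIL libraries below both splenic ones. *Msc* did not pass the expression filter in WT and was not tested by edgeR there.

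In KO, edgeR called 0 of the 8 genes, with 4 at an unadjusted p under 0.05, where it called 136 of 16933 genes (0.803%) higher and 92 (0.543%) lower in TIL. DESeq2 called 5 of the 8, 4 higher and 1 lower, where it called 2536 of 19396 genes (13.1%) higher and 1277 (6.58%) lower. edgeR called 4 without KO TIL replicate 1 and 5 without KO TIL replicate 2, when it also called 3549 and 4958 genes in all, and 0 genes without either splenic library. *Kit* was higher in both TIL libraries (2.14 on the log2 scale, standard error 0.30, adjusted p = 0.0540 from edgeR and 1.13e-06 from DESeq2). *Clgn* and *Ncald* were higher in both as well, with 2.38 (adjusted p = 0.0879 from edgeR and 0.00227 from DESeq2) and 1.95 (adjusted p = 0.0926 from edgeR and 0.00622 from DESeq2). Omitting KO TIL replicate 2 lowered them to 1.53 and 1.47, and the highest values with a library left out were 2.92 for *Clgn* (KO TIL replicate 1 omitted) and 2.61 for *Ncald* (KO splenic replicate 1 omitted). *Msc* went the other way and was lower in both TIL libraries, with -2.34 (standard error 0.60, adjusted p = 0.0834 from edgeR and 0.00229 from DESeq2), -3.24 without KO TIL replicate 2 and -1.78 without KO TIL replicate 1. *C3* had 3.35 (adjusted p = 0.187 from edgeR and 0.0108 from DESeq2), which became -0.02 without KO TIL replicate 1 and 4.28 without KO TIL replicate 2. *Atrnl1* had 1.17, and -0.22 without KO TIL replicate 1. *Amd2* (-0.25) and *1700025G04Rik* (-0.02) overlapped between spleen and TIL. Whether the tissue differences of the genotypes differ from each other was not tested.

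Markers of other cells moved in the same contrasts. Of the 8 melanocyte and melanoma markers edgeR called 7 higher in WT TIL and 2 in KO TIL, and DESeq2 called 8 in each. *Tyr*, *Slc45a2* and *Sox10* had 0 counts in every splenic library, so no median log2 fold change is given for this list. *Cd8a*, at 2.87 in WT and 8.07 in KO, was called higher by DESeq2 in both genotypes. In KO, TIL over spleen had a median of 7.56 over the 8 NK cell markers, 5.68 over the 8 neutrophil markers and 2.73 over the 12 macrophage markers, and edgeR called 2, 3 and 0 of them higher (7, 8 and 6 at an unadjusted p under 0.05), and DESeq2 7, 7 and 9. *Ncr1*, *Klra8* and *Klra4* had 0 counts in both KO splenic libraries, so the NK cell median is imprecise. Among neutrophil markers, *Cxcr2* had 0 counts in both KO splenic libraries, *Ly6g* and *Ltf* in replicate 1 and *Mmp8* in replicate 2. The neutrophil median is imprecise too. The 6 Treg markers had a median of 0.53 in WT, with *Ctla4* called higher by edgeR, and -2.04 in KO, with *Ikzf2* and *Ikzf4* called lower. In KO, 5 of the 6 Treg markers were lower in TIL than in spleen, and *Ctla4*, the most abundant, was higher (log2 fold change 1.15). Not all other cells had higher sums: B cell markers were at 276 and 135 CPM in KO TIL against 1309 and 1391 CPM in KO spleen. DESeq2 called *Cd79b* and *Ighm* lower in KO TIL, and also the progenitor genes *Gata1* and *Hlf*. The part of these changes in the tissue differences of the 8 genes was not tested.

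Lists around the genes also had calls between tissues. Among 26 complement genes tested in WT, with a median of 1.14 against -0.04 over all genes, edgeR's calls included *C4b*, *C3ar1*, *C5ar1* and *Itgam*, higher in TIL, and *C6*, lower. Several of these are macrophage genes. Of the 12 macrophage markers, 6 were above 0 and 6 below in this contrast (median -0.16), and their sums overlapped between WT TIL and WT spleen. DESeq2 called *Lyz2* higher in WT TIL (log2 fold change 3.73), at 1566 and 129.7 CPM against 28.5 and 98.9 CPM, and edgeR called 0 of the 12, with 2 at an unadjusted p under 0.05. The part of macrophages in the complement calls was not tested. Among Th2 genes edgeR called 5 of 14 higher in WT TIL (*Il5*, *Ccr8*, *Il10*, *Areg* and *Dusp4*) and *Il4* lower, and in KO *Dusp4* higher and *Ccr4* lower. *Il5* had 1 and 0 counts in WT spleen, below the floor of 3, against 14 and 24 in WT TIL. It passed the expression filter through TIL, and DESeq2 did not call it (adjusted p = 0.0785). Of the bHLH genes, *Bhlhe40* and *Mxd1* were called higher and *Id3* lower in WT TIL, and *Bhlhe40* higher and *Mxd4* lower in KO TIL. In WT, *Ero1l* of the chaperone list was called higher (3.49), *Sh2b3* of the Kit list lower (-2.87) and *Mc1r* of the attractin list higher (4.70). Of the calcium sensors edgeR called 0 in either genotype, with 0 in WT and 3 in KO at an unadjusted p under 0.05, and DESeq2 called 0 in WT and 3 in KO.

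Across the 8 libraries some of the genes were more alike than others, which is given as a description because the libraries share the genotype difference that chose them. Over the 28 pairs of genes, Pearson's r of log2 CPM ran from 0.297 to 0.979 with a median of 0.651. *Ncald*, *Clgn* and *Kit* were most alike (0.954 to 0.979) and were the genes higher in TIL. *Msc*, *Amd2* and *1700025G04Rik*, which were not higher in TIL, had r between 0.853 and 0.937 with each other, and *1700025G04Rik* was closer to *Atrnl1* (0.872) than to *Msc* (0.853). *C3* and *Atrnl1*, both highest in KO TIL replicate 1, had r = 0.935. Within KO TIL, *Msc*, *Ncald*, *Clgn* and *Amd2* were higher in replicate 2, the library with more *Cd8a* and *Cd8b1*, and *Kit*, *C3*, *Atrnl1* and *1700025G04Rik* in replicate 1. The 8 NK cell markers (*Tyrobp* the most abundant) summed to 968 and 711 CPM in KO against 203 and 46.4 CPM in WT TIL, and to 39.3 and 61.5 CPM in KO against 45.1 and 299 CPM in WT spleen. *Tyrobp* alone was at 733 and 126 CPM in KO against 165 and 40.1 CPM in WT TIL. In spleen it was at 21.8 and 48.2 CPM in KO against 28.3 and 281 CPM in WT. In each tissue *Tyrobp* was highest in the library with the highest macrophage sum. The part of macrophages in the NK sums was not tested. In spleen the *Cd8* sum was lower in both KO libraries and the NK sums overlapped, while the 8 genes were higher in KO. The part of CD8 T cells or NK cells in the TIL values was not tested. Sums of 8 B cell markers (*Ighm* the most abundant) overlapped between genotypes in spleen, at 1309 and 1391 CPM in KO against 1573 and 1193 CPM in WT, and were lower in KO TIL, at 276 and 135 against 335 and 493 CPM. The 8 dendritic cell markers (*Ccr7* the most abundant) summed to 685 and 448 CPM in KO against 431 and 321 CPM in WT TIL, and to 260.4 and 276 CPM in KO against 206 and 274 CPM in WT spleen. *Ccr7* made up most of each sum, with 467 and 332 CPM in KO against 362 and 259 CPM in WT TIL. Of the 8 markers tested in TIL, 6 were above 0 and 2 below (median 1.13). DESeq2 called *Itgax* higher in KO TIL and edgeR called 0.

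Per length of exon, all 8 genes were low in WT. In WT spleen mean levels ran from 0.857 RPKM for *C3*, separate from the next, *Amd2*, to 0.0305 RPKM for *Clgn*, and the 4 lowest, *Msc*, *Kit*, *Ncald* and *Clgn*, each overlapped with the next. KO spleen ran from 4.88 RPKM for *Msc*, separate from *Amd2* and *C3* at 3.32 and 3.32 RPKM, to 0.605 RPKM for *Clgn*. In WT TIL the range was 1.32 RPKM for *C3* to 0.0821 RPKM for *Msc*. In KO TIL *C3* had a mean of 32.9 RPKM, above 88.1% of filtered genes, though its lower library overlapped with the next gene, and *Clgn*, *Ncald*, *Amd2*, *Kit* and *Atrnl1* lay between 2.70 and 3.15 RPKM without separation. By mean RPKM, *Msc* was the most abundant of the 8 in KO spleen and the least abundant in both TIL groups, separate from the others in WT TIL and overlapping with *1700025G04Rik* and *Atrnl1* in KO TIL.

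Among all filtered genes, those whose log2 CPM was most like each of the 8 over the 8 libraries were for the most part low in abundance. *Msc* was most like *Gm43291* (Pearson's r 0.971) and its antisense neighbor *Gm9947* (0.936). *Gm27194* was the gene most like *Ncald* (0.961), *Clgn* (0.986) and *Kit* (0.983), and it was between 0.143 and 1.83 CPM. Second to it came *Gm44729* for *Ncald* (0.958), *Acat1*, a mitochondrial thiolase, for *Clgn* (0.974), and *Upp1*, uridine phosphorylase, for *Kit* (0.976). *Upp1* was at 107 and 23.3 CPM in KO against 19.3 and 5.33 CPM in WT TIL, and at 5.90 and 2.03 CPM in KO against 0.180 and 0 CPM in WT spleen. *C3* was most like *Dock3* (0.973) and *Heatr5a* (0.971), and *Atrnl1* like *Gpc1* (0.978), a heparan sulfate proteoglycan gene, and *Arhgap21* (0.967). *Gpc1* was at 24.3 and 20.3 CPM in KO against 6.34 and 5.24 CPM in WT spleen. *Amd2* was most like the immunoglobulin segment *Igkv4-72* (0.953) and *Myo16* (0.903), and *1700025G04Rik* like *Pxdc1* (0.924) and the kinase gene *Rock2* (0.920). The mean profile of the 8 genes was most like *Slc9a2* (0.976), *Smoc1* (0.971), *Arhgap21* (0.957), *Egfr* (0.942) and *4930513N10Rik* (0.941), and *Slc9a2* did not exceed 0.598 CPM in a library.

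Promoter sequences of RefSeq (300 bases, build GRCm38.p6) were found for 5 of the 8 genes, *Kit*, *C3*, *Amd2*, *Atrnl1* and *1700025G04Rik*, and not for *Msc*, *Ncald* and *Clgn*. The letters GTGAAAG, a core of the Blimp1 recognition sequence, were searched on both strands, as was the shorter GAAAG that they contain. GTGAAAG was in 0 of the 5 and in 4.24% of 32851 promoters, and GAAAG in 1 of the 5 (*C3*) and in 57.3% of all. These shares say only which letters lie in these windows. The promoter of *C3*, chr17:57228087-57228386 on the minus strand, is shown as the only match, with capitals on the letters CTTTC (bases 115 to 119), which read GAAAG on the opposite strand.
C3: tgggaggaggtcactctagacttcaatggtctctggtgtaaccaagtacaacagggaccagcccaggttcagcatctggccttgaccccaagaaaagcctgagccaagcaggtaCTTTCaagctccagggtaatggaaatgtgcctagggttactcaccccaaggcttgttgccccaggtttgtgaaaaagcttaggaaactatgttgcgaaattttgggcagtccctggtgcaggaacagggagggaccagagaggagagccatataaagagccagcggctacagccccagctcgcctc
The promoters differed widely in base composition: GC made up 77.7% in *Atrnl1*, 75.3% in *1700025G04Rik*, 69.0% in *Kit*, 53.3% in *C3* and 40.7% in *Amd2*, against 63.0% in *Amd1* and a median of 52.7% over all promoters. No base composition was thus common to the 5.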

How the data were processed

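The authors deposited raw counts of reads per gene for each of the 8 libraries. Per the submitters' notes, reads were trimmed (Trimmomatic 0.36), aligned to GRCm38 (STAR 2.5.2b) and assigned to exons if unique (featureCounts, Subread 1.5.2). The sources do not say if strand was used, so overlapping genes, and near-identical copies such as Amd1 and Amd2, are uncertain. The normalized table was not used. R 4.3.3 ran edgeR 4.0.16 (with limma 3.58.1) and DESeq2 1.42.0. edgeR's quasi-likelihood model, with TMM factors and filterByExpr at a minimum count of 10, was fitted to the 4 libraries of a comparison. A gene was called at a Benjamini-Hochberg adjusted p of 0.05, over all genes tested, if its log2 fold change was beyond 1 in size. Standard errors are the log2 fold change over the root of its F value. CPM used TMM factors over the 8 libraries, RPKM is CPM per kilobase of exon, and likeness used log2 CPM with a prior count of 2. Floors and intervals cover only counting error, since amplified reads that carry no molecular identifier are not independent. The 8 genes, the gene lists and the marker lists were chosen with earlier results of these data known. Genes named are the 8, Prdm1, Amd1, in the related and marker lists genes highest or lowest by genotype difference, the most abundant and genes called, the 2 most like each of the 8 and the 5 most like their mean. Others are said to have been chosen after their values were seen, or are textbook examples from the lists. Alternatives were the Wald test of DESeq2, its size factors in edgeR, no filter, a fit of all 8 libraries, a block for replicate number, and omission of single libraries. Python used Biopython 1.88, NumPy 2.4.6, SciPy 1.17.1 and pandas 2.3.3, transcripts of Amd1 and Amd2 are the longest in GENCODE M21, and plots were drawn with Matplotlib 3.10.9.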

Additional observations from a re-analysis of the deposited data

Results flagged for a closer look

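8 genes of the related lists moved in opposite directions in the 2 groups of a contrast, among genes that passed the expression filter in both, with both libraries of a group on the same side, and none of the differences was tested. *Ccr4*, a chemokine receptor of Th2 and Treg cells, was at 327 and 309 CPM in KO against 159 and 95.8 CPM in WT spleen (log2 fold change 1.32), and at 29.3 and 14.3 CPM in KO against 79.3 and 134 CPM in WT TIL (-2.30), a difference of -3.615. *Ccr8*, a chemokine receptor of tumor Treg and Th2 cells, was at 852 and 949.9 CPM in WT TIL and 155 and 112 CPM in WT spleen (log2 fold change 2.76), and at 83.1 and 55.6 CPM in KO TIL and 94.5 and 90.5 CPM in KO spleen (-0.39), a difference of -3.15. *Hey1*, a bHLH repressor of the Notch pathway, was at 3.48 and 2.46 CPM in KO against 1.89 and 0.963 CPM in WT spleen (log2 fold change 1.05), and at 0.635 and 0.224 CPM in KO against 0.682 and 1.28 CPM in WT TIL (-1.18), a difference of -2.23. *Kcnip2*, an EF-hand partner of potassium channels, was at 3.46 and 3.01 CPM in KO against 2.81 and 2.60 CPM in WT spleen (log2 fold change 0.25), and at 0.539 and 0.598 CPM in KO against 1.15 and 1.55 CPM in WT TIL (-1.25), a difference of -1.50. *Grb2*, an adaptor of receptor kinases, was at 134 and 127 CPM in KO against 135 and 163 CPM in WT spleen (log2 fold change -0.20), and at 237 and 149.5 CPM in KO against 78.3 and 48.4 CPM in WT TIL (1.61), a difference of 1.81, and TIL over spleen was -1.24 in WT and 0.59 in KO, a difference of 1.83. For the other three, KO over WT was 0.61 in spleen and -0.67 in TIL for the transcription factor *Stat5b* (a difference of -1.28), 0.18 and -0.69 for *Mat2b*, a subunit of the enzyme that makes S-adenosylmethionine (-0.87), and -0.19 and 0.37 for *Dohh*, an enzyme of hypusine synthesis (0.56). None of the 8 selected genes was of this kind, and groups of 2 allow no test for a single deviating library.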

How the results depend on the processing

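For the 8 selected genes, KO over WT kept its direction in every setting run, between 1.48 and 6.35 in spleen and between 1.27 and 6.34 in TIL, a direction that their choice fixes. The number of genes with each KO library above each WT library in both tissues was 543, 565 with DESeq2's size factors and 573 with CPM by total counts, with all 8 genes in each. Of 83 tissue contrasts of single genes under other settings than leaving out a library, 66 kept direction and side of the threshold, 15 newly passed and 2 reversed: *1700025G04Rik* in KO, at 0.0139 under DESeq2 and 0.0147 with its size factors. The cause was not tested. With a library left out, the genes that reversed in at least 1 fit ran from -1.08 to 1.43 (*C3*), -0.67 to 0.51 (*Amd2*) and -0.46 to 1.59 (*Atrnl1*) in WT, and from -0.0181 to 4.28 (*C3*), -0.77 to 0.27 (*Amd2*), -0.22 to 1.87 (*Atrnl1*) and -0.24 to 0.30 (*1700025G04Rik*) in KO. Genes called between tissues numbered 981 in WT (DESeq2 1805, no filter 1922, leaving out libraries 213 to 1401) and 228 in KO (DESeq2 3813, no filter 3183, all 8 libraries 1743, leaving out libraries 0 to 4958). Between genotypes edgeR called 0 in spleen (489 at an unadjusted p under 0.05, DESeq2 75, no filter 167, leaving out libraries 21 to 3972) and 0 in TIL (1573 at an unadjusted p under 0.05, DESeq2 761, no filter 1072, all 8 libraries 135, leaving out libraries 0 to 0). Of the 8 genes, 3 were called between tissues in WT under each other setting and 0 to 3 with a library left out. In KO edgeR called 0 (4 at an unadjusted p under 0.05), and 5 by DESeq2, 5 with no filter, 1 with all 8 libraries and 0 to 5 with a library left out. The replicate number as a block gave 101 genes between genotypes in spleen and 728 in TIL; across replicate pairs, deviations of same-numbered libraries correlated at 0.155 and 0.234 between genotypes and at -0.0243 and -0.220 between tissues in WT and KO, and a crossed block in KO, chosen after seeing the data, gave 2934 genes and 4 of the 8. Whether these pairs share mice is not stated. *Msc* failed the filter in WT, so its tissue contrast there is left out of these counts; DESeq2 gave -0.64 (adjusted p = 0.886). A fit without 1 library assumes that the lone library of a group varies like the others. Among the 8 genes, depth limits *Msc* in WT spleen and WT TIL and *Clgn* and *Ncald* in WT spleen, each at 20 counts or fewer per pair.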
